A study of Homo sapiens with 8 samples.

Results

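The 29 genes described here encode enzymes and regulators of cholesterol and fatty acid synthesis. They were taken from a fixed list of names out of 24630 features in the RNA count tables. The rule for the list used no measured values, but earlier results of these data were known when it was chosen. All 29 were found by symbol. They comprise 7 enzymes that carry acetyl-CoA through mevalonate to farnesyl diphosphate, 11 enzymes from squalene to cholesterol, 6 genes of sterol sensing and transport, and 5 enzymes of fatty acid synthesis. The genes were measured in PC9, a human lung adenocarcinoma line with an activating EGFR mutation, and in PC9R, which was selected from PC9 by exposure to the EGFR inhibitor gefitinib for 1 to 2 weeks. Cells of both lines were grown in DMEM and used at passages 8 to 12. There were 2 RNA-seq libraries per line, called the first and the second, and 1 peak list per line for DNase hypersensitive sites (DHS, open chromatin) and for H3K4me2 (a histone mark of promoters and enhancers). Only PC9R had a gefitinib exposure, and 1 resistant population was profiled, so effects of the drug, of selection and of that population cannot be told apart.

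Cholesterol is built from acetyl-CoA. Mevalonate is made first and turned into isoprenoid units, which are joined to farnesyl diphosphate, then squalene, then cyclised to lanosterol and trimmed to cholesterol. Transcription of most of these genes is driven by the sterol regulatory element-binding proteins (SREBPs), encoded by SREBF1 and SREBF2. When membrane sterol is scarce, the escort protein SCAP carries SREBP from the endoplasmic reticulum to the Golgi for cleavage. When sterol is plentiful, the INSIG proteins hold SCAP back. SREBP binds sterol regulatory elements and usually works beside NF-Y, which binds CCAAT, and Sp1, which binds GC boxes.

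The promoter of SREBF2 was among 2 of 29 (6.90%) that held the sterol regulatory element letters TCACNCCAC on either strand in the 250 bases before the start, where N is any base. The same letters were found in 0.967% of 19854 promoters of coding genes. The SREBF2 promoter is shown with those of STARD4, EBP and SCD, which were chosen after their values had been seen as genes with CCAAT letters and contrasting results. Coordinates are GRCh37, the sequence is that of the RNA strand, and stretches stop where an annotated exon of a coding gene begins. Exons of non-coding genes were not left out, and all 250 bases of SREBF2 lie in exons of SREBF2-AS1. Capitals mark TCACNCCAC or CCAAT, and the latter reads ATTGG where it lies on the other strand.
SREBF2, chr22:42228859-42229108, plus strand: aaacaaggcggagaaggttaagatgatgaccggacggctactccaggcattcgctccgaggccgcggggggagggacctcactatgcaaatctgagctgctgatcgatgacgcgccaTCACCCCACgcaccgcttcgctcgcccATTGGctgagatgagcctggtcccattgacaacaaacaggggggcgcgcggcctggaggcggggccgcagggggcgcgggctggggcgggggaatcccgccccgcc
STARD4, chr5:110848289-110848483, minus strand: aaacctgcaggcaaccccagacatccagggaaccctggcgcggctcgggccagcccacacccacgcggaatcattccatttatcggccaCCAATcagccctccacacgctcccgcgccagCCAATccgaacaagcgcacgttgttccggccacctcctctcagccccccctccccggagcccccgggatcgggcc
EBP, chrX:48379946-48380186, plus strand: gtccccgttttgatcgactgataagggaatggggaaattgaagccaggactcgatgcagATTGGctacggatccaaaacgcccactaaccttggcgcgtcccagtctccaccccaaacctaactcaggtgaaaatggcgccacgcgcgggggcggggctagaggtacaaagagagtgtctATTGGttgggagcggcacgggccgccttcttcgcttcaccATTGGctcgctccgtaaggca
SCD, chr10:102106740-102106989, plus strand: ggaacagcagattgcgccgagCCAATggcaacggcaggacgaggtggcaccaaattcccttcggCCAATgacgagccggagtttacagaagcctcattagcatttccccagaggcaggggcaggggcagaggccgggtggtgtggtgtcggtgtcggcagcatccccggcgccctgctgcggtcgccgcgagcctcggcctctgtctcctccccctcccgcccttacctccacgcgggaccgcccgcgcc

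CCAAT occurred in 21 of the 29 promoters (72.4%), against 34.3% of all coding promoters. The GC box GGGCGG occurred in 28 (96.6% against 59.2%), NSDHL being the exception. The E-box CACGTG, another set of letters that SREBPs can bind, occurred in 3 (SC5D, INSIG1 and SCAP; 10.3% against 7.88%). The letter sets do not overlap one another, both strands were searched, and a match is a description of the letters only. SREBF2 carries its element 133 to 125 bases before the start, with a CCAAT 106 to 102 bases before it. EBP has 3 CCAAT matches and no TCACNCCAC.

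The PC9 libraries held 32515891 (first) and 16013058 (second) counts, and those of PC9R 32502455 and 16715426. The labels name no separate cultures, so a p-value here reflects the spread between libraries that may be technical repeats. All are bulk RNA, so fewer cells expressing a gene and less RNA per cell cannot be told apart. Of 8 epithelial markers, 6 were expressed, with a summed level of 10550 to 24190 CPM (counts scaled to library size, TMM-normalized), while NKX2-1 and SFTPB, which mark distal lung epithelium, stayed under 1 CPM in all 4 libraries. The 5 markers of adipocytes and hepatocytes, cells that make much lipid, were all under 1 CPM, with ADIPOQ, FABP4, ALB and APOA1 at 0. Summed leukocyte markers were 8.62 and 8.68 CPM in PC9 and 17.3 and 13.6 CPM in PC9R, nearly all from CD68. Endothelial markers summed to 22.4 and 12.7 CPM in PC9 and 46.8 and 20.0 CPM in PC9R, and fibroblast markers to 24.3 and 6.34 CPM and to 65.2 and 14.2 CPM, nearly all from COL1A1. Their part in the results was not tested.

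Between the lines, 6 of the 29 genes passed the test when library number (first or second) was a term in the model, and none passed without it. SQLE, EBP and HSD17B7 were higher in PC9R, and FDFT1, FASN and SCAP were lower. Without library number in the model, 0 of the 27 genes that passed the filter on low counts were called by edgeR's quasi-likelihood test at a Benjamini-Hochberg adjusted p under 0.05, where 0.253% of 12660 tested features were called (24 higher, 0.19%, and 8 lower, 0.0632%). In that fit 2 genes, FDFT1 and SQLE, had an unadjusted p under 0.05, and DESeq2 and limma-voom also called 0. With library number, 20.8% of all tested features were called (11.2% higher and 9.57% lower). The 6 of 27 called, 3 in each direction, are close to these shares. This second fit leaves 1 residual degree of freedom for each gene, and its p-values depend mostly on a spread that all genes share.

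Fold changes of the 27 tested genes had a median of 0.27 on the log2 scale (PC9R minus PC9), against -0.0096 over all tested features, with 18 above 0 and 9 below. Both PC9R libraries lay above both PC9 libraries for 7 of the 27, where 16.9% of all tested features did so. They lay below for 2 of the 27, against 14.9% (31.8% in either direction). Within each library number 11 were higher in PC9R (36.6% of all tested features) and 4 were lower (37.4%). TM7SF2 had 0 counts in every library, and STARD4 had too few counts to be tested.

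**Figure D1:**
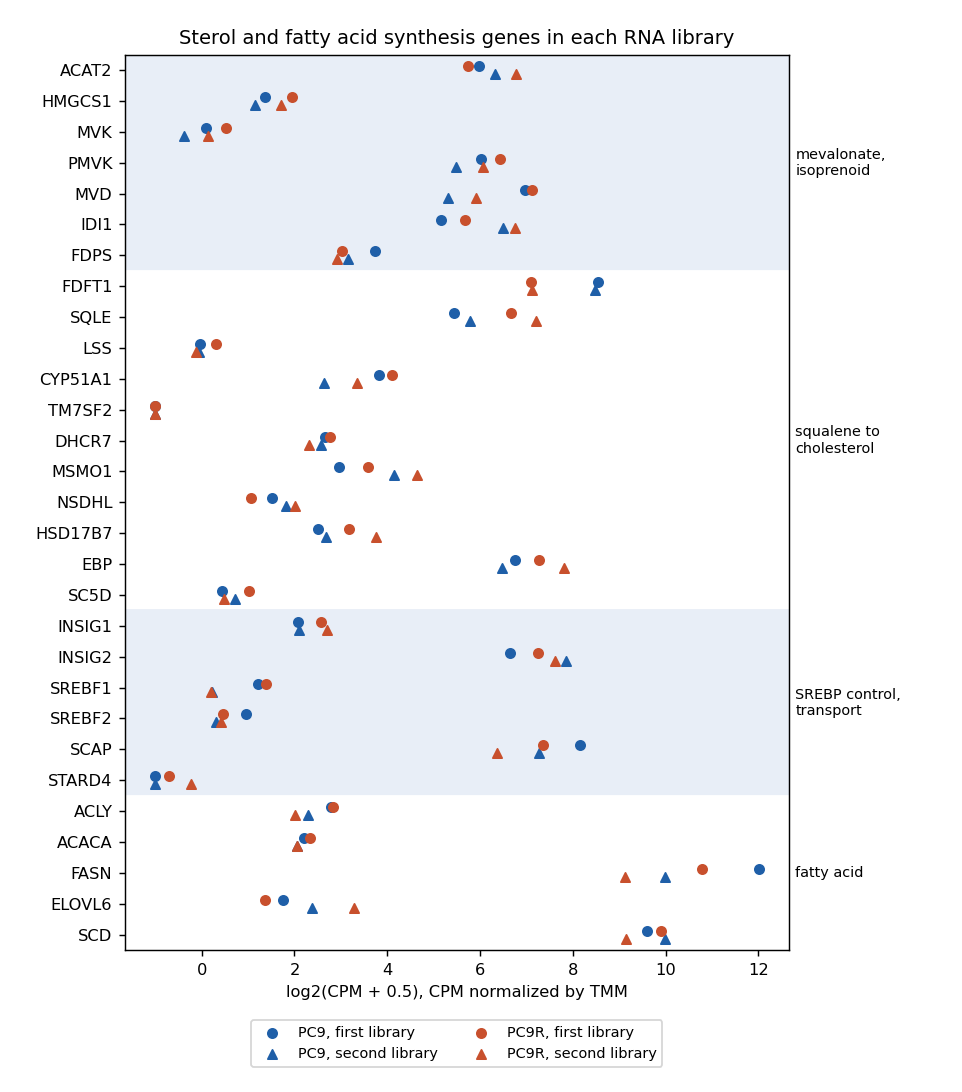
Level of each of the 29 genes in each RNA library, on a log2(CPM + 0.5) scale (x axis), with circles for first and triangles for second libraries, blue for PC9 and orange for PC9R. Levels of different genes are not scaled for transcript length. For FDFT1 and SQLE the lines separate in both libraries, while for FASN the gap between first and second libraries of a line exceeds the gap between the lines.

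The table counts reads per RefSeq transcript accession, and 13 of the genes have 1 accession while 16 have several. All 6 called genes have 1 accession. Of the 15 tested genes with several accessions 0 were called in either edgeR fit. Over all tested features 20.8% were called with library number and 0.253% without it. These shares were not computed apart for features with 1 and with several accessions, so the split is a description only. Over the whole table the 8198 genes with several accessions hold 6.74% to 7.07% of a library's counts, so the low values of HMGCS1, MVK, LSS, CYP51A1, DHCR7, SREBF1, SREBF2, ACLY, ACACA and the like were not read as low expression. Their folds compare only the reads that were counted.

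Among the enzymes up to farnesyl diphosphate, 0 of 7 genes were called in either edgeR fit. Of all tested features 20.8% were called with library number and 0.253% without it, and 7 genes are too few to differ clearly from these shares. A fold change above 0 was seen in 6 of the 7 (median log2 fold change 0.33). HMGCS1, which condenses acetyl-CoA units into the precursor of mevalonate, had 2.07 and 1.74 CPM in the first and second PC9 libraries and 3.36 and 2.79 CPM in PC9R. Both PC9R values lay above both PC9 values, and the log2 fold change was 0.69 (SE 0.32, edgeR adjusted p = 0.159 with library number). PMVK, the second kinase of the pathway, had 64.6 and 44.2 CPM in PC9 and 85.3 and 66.2 CPM in PC9R. Its libraries did not overlap either (log2 fold change 0.49 with SE 0.20, adjusted p = 0.122 by edgeR with library number). MVK, the first kinase, was counted 18 and 4 times in PC9 and 33 and 10 times in PC9R. Its levels of 0.564 and 0.267 against 0.940 and 0.594 CPM did not overlap, but they rest on few counts. Its log2 fold change was 0.86 (SE 0.50, edgeR adjusted p = 0.262 with library number).

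MVD, which decarboxylates mevalonate diphosphate, and IDI1, which isomerises isopentenyl diphosphate, moved more between libraries than between lines. MVD had 124 and 39.4 CPM in PC9 and 138 and 59.4 CPM in PC9R. IDI1 went the other way between libraries, with 34.97 and 90.0 CPM in PC9 and 50.7 and 107 CPM in PC9R. Within the first and second libraries the PC9R value was higher by 0.15 and 0.58 for MVD and by 0.53 and 0.25 for IDI1 on the log2(CPM + 0.5) scale. ACAT2, the cytosolic thiolase at the head of the pathway, had 62.6 and 78.9 CPM in PC9 and 52.7 and 110 CPM in PC9R. It overlapped between the lines and differed in sign between the libraries (-0.25 in the first, 0.47 in the second). FDPS, which makes farnesyl diphosphate, was the gene of this group below 0, with 12.8 and 8.41 CPM in PC9 and 7.69 and 7.01 CPM in PC9R. Its libraries did not overlap (log2 fold change -0.51 with SE 0.26, adjusted p = 0.199 by edgeR with library number).

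From squalene to cholesterol, 4 of the 10 tested genes were called with library number in the model, where 20.8% of all tested features were. The first pair of enzymes went in opposite directions. FDFT1, squalene synthase, commits farnesyl diphosphate to sterols. It had 370 and 355 CPM in the first and second PC9 libraries and 137 and 139 CPM in those of PC9R. The lines did not overlap, and each line's libraries lay close together (362 ± 10.8 and 138 ± 1.14 CPM, SD, n = 2). FDFT1 was 2.62-fold lower in PC9R, a log2 fold change of -1.39 with an SE of 0.18 and an edgeR adjusted p = 0.00196 when library number was modelled (SE 0.50 and adjusted p = 0.482 without it).

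SQLE, squalene epoxidase, uses the product of FDFT1 and is a rate-limiting step of the later pathway. It had 42.6 and 54.7 CPM in PC9 and 101 and 148 CPM in PC9R. Both PC9R libraries were above both PC9 libraries. SQLE was 2.54-fold higher in PC9R, a log2 fold change of 1.34 with an SE of 0.20 and an edgeR adjusted p = 0.00344 when library number was modelled (SE 0.56 and adjusted p = 0.63 without it). The difference between the lines was 1.24 (first libraries) and 1.43 (second) for SQLE, and -1.43 and -1.35 for FDFT1, on the log2(CPM + 0.5) scale. Per kilobase of transcript, FDFT1 was at 178 CPM in PC9 and 67.96 in PC9R, and SQLE at 16.4 and 42.1, so the level of FDFT1 stayed above that of SQLE in the means of both lines.

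EBP, the sterol isomerase, and HSD17B7, the keto reductase of the demethylation complex, were the other called genes of this group. EBP had 108 and 88.0 CPM in PC9 and 154 and 222 CPM in PC9R, with no overlap. Its fold change was 1.90 (log2 0.92, SE 0.24, edgeR adjusted p = 0.029 with library number), and the difference was smaller in the first libraries (0.52) than in the second (1.33). HSD17B7 had 5.21 and 5.87 CPM in PC9 and 8.54 and 13.1 CPM in PC9R, also without overlap. It was 1.90-fold higher (log2 0.93, SE 0.26, edgeR adjusted p = 0.0409 with library number), and with a correction for GC content added the adjusted p was 0.0542. HSD17B7 has closely related pseudogene copies and EBP shares 644 exonic bases with a readthrough gene, so reads may be split between them and both values are uncertain.

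Values of the other enzymes of this group did not pass in either fit. MSMO1, the methylsterol oxidase, had 7.24 and 17.3 CPM in PC9 and 11.5 and 24.4 CPM in PC9R. It was higher in PC9R in the first and second libraries by 0.64 and 0.48 (log2 fold change 0.58 with SE 0.23, adjusted p = 0.111 by edgeR with library number). CYP51A1, the lanosterol demethylase, had 13.6 and 5.74 CPM in PC9 and 16.7 and 9.63 CPM in PC9R, and was higher by 0.28 and 0.70. It shares 2844 and 2827 of its 4171 exonic bases with 2 other annotated coding genes on the same strand, so its value is uncertain. For MSMO1 and CYP51A1 the lines overlapped, since the libraries of a line lay further apart than those of the same number. The signs differed between the first and second libraries for LSS, the cyclase that makes lanosterol (0.35 and -0.08), for NSDHL, the sterol dehydrogenase that works with HSD17B7 (-0.45 and 0.19), for SC5D, the sterol desaturase (0.60 and -0.23), and for DHCR7, the last reductase (0.13 and -0.27). TM7SF2, a sterol reductase that has 3 accessions, was listed at 0 counts throughout, so no fold is given.

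**Figure D2:**
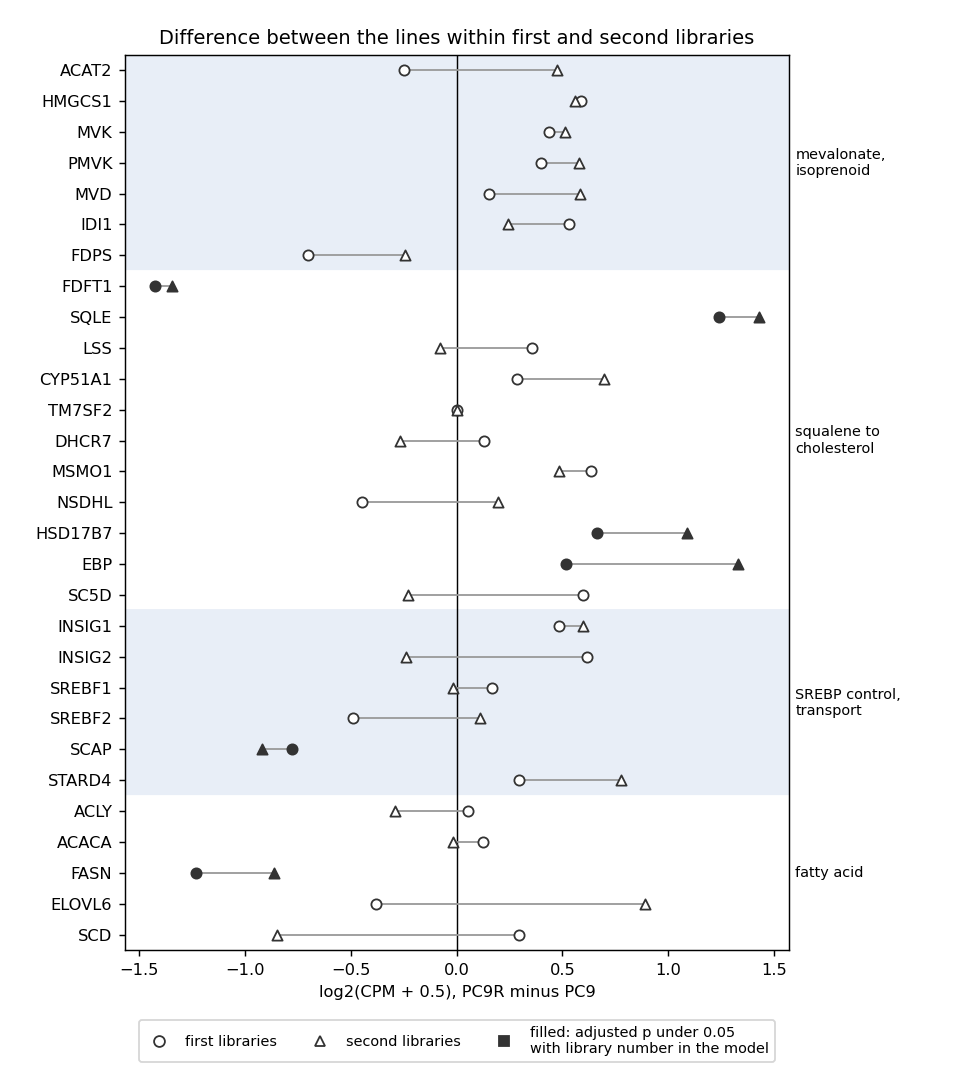
Difference between the lines in log2(CPM + 0.5), PC9R minus PC9, within the first libraries (circles) and within the second (triangles), joined by a line for each of the 29 genes. Filled symbols mark the 6 genes called with library number in the model, and for each of these both symbols lie on the same side of 0.

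Of the regulators, SCAP was the 1 gene of 5 tested that was called with library number (20.8% of all tested features). It had 282 and 154 CPM in PC9 and 164 and 81.3 CPM in PC9R. Each PC9R library was below the PC9 library of the same number, but the first PC9R library was above the second PC9 library, so the lines overlapped. SCAP was 1.80-fold lower (log2 -0.85 with SE 0.19, and adjusted p = 0.0157 by edgeR with library number), with differences of -0.78 (first libraries) and -0.92 (second). Without that term the log2 fold change was -0.83 (SE 0.61, edgeR adjusted p = 0.999).

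INSIG1, itself an SREBP target that retains SCAP, had 3.73 and 3.80 CPM in PC9 and 5.41 and 6.004 CPM in PC9R. The lines did not overlap and the log2 fold change was 0.59 (SE 0.28, edgeR adjusted p = 0.166 with library number). INSIG2, the second retention protein, had 98.97 and 230 CPM in PC9 and 152 and 194 CPM in PC9R, and the difference changed sign between libraries. The SREBP genes themselves did not pass in either fit. SREBF1 had 58 and 10 counts in PC9 and 74 and 11 in PC9R, and SREBF2 46 and 11 counts in PC9 and 31 and 14 in PC9R. All SREBF2 counts came from its non-coding RefSeq transcript, while its coding transcript had 0 in every library. Both SREBP genes have several accessions, so these counts were not read as low expression. Their second libraries hold too few counts to show a modest difference.

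STARD4, a sterol carrier protein, had 0 counts in both PC9 libraries and 4 and 6 in PC9R. Against a floor of 3 counts over the PC9 group it was at least 3.29-fold higher in PC9R, an amount that covers counting error only. Its promoter, shown above, is described again with the peaks.

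Of the 5 enzymes of fatty acid synthesis 1 was called with library number, FASN (20.8% of all tested features). FASN encodes the synthase that builds palmitate, and it had 4107 and 1014 CPM in PC9 and 1750 and 557 CPM in PC9R. The lines overlapped, since the first PC9R library was above the second PC9 library. Within the first and within the second libraries FASN was lower in PC9R, with differences of -1.23 and -0.86. It was 2.07-fold lower, a log2 fold change of -1.05 with an SE of 0.18 and an edgeR adjusted p = 0.00596 when library number was modelled (SE 0.77 and adjusted p = 0.967 without it). When the first PC9 library was left out, the fold change without library number was 0.18, the opposite sign.

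SCD, the desaturase that makes oleate, had 779 and 1012 CPM in PC9 and 957 and 562 CPM in PC9R. The difference was 0.30 in the first libraries and -0.85 in the second, and its log2 fold change was -0.28 (SE 0.27, edgeR adjusted p = 0.50 with library number). ELOVL6, which extends palmitate, had 2.85 and 4.74 CPM in PC9 and 2.08 and 9.21 CPM in PC9R and also changed sign (-0.38 and 0.89). The second PC9R library of ELOVL6 was the highest and the first PC9R library the lowest. ACLY, which supplies cytosolic acetyl-CoA, and ACACA, the carboxylase that makes malonyl-CoA, had log2 fold changes of -0.11 (SE 0.28) and 0.07 (SE 0.29). Per kilobase of transcript, FASN had the highest mean level of the 29 genes in PC9 (302 CPM). In PC9R its mean was 136, against 167 for EBP and 145 for SCD. Its libraries overlapped those of SCD and FDFT1 in PC9, and those of EBP and SCD in PC9R, so the order is not resolved in either line.

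First and second libraries differed as much as the lines for several of the genes, and in the same way in both lines. On the log2(CPM + 0.5) scale the second library minus the first was -2.02 in PC9 and -1.65 in PC9R for FASN, and -1.64 and -1.21 for MVD. The same difference was 1.35 and 1.06 for IDI1, and 1.20 and 1.05 for MSMO1. The transcripts of FASN and MVD have 65.3% and 65.5% GC, and those of IDI1 and MSMO1 37.9% and 37.4%. Other genes of low GC were mixed. The difference was -1.18 and -0.76 for CYP51A1 (41.0% GC), -0.20 and -0.23 for HMGCS1 (38.95%) and 0.28 and -0.55 for SC5D (36.9%). It was 1.21 and 0.35 for INSIG2 (36.3%) and 0.64 and 1.91 for ELOVL6 (41.4%). At high GC, SCAP (61.7%) had -0.87 and -1.01 and SREBF1 (63.2%) had -0.99 and -1.18. Of these, CYP51A1, HMGCS1, SC5D, ELOVL6 and SREBF1 have several accessions, so their values cover only the reads that were counted. These genes were picked after their values were seen, and the part of GC content was not tested over the set. Adding a correction for GC to the model with library number left 5 of the 6 calls, without HSD17B7.

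Genes that neighbour the pathway but are not in the set gave 0 calls without library number, where 0.253% of all tested features were called. With library number 20.8% of all tested features were called (11.2% higher and 9.57% lower). In that fit the 8 genes of SREBP processing and sterol sensing gave 1 call, ERLIN2, which takes part in sterol-regulated degradation. Its log2 fold change was 0.76 (SE 0.21, edgeR adjusted p = 0.0359). Of 7 tested genes of sterol efflux, ABCA1, the cholesterol exporter, was higher, with 35.8 and 50.5 CPM in PC9 and 144 and 193 CPM in PC9R (3.93-fold, edgeR adjusted p = 0.000592 with library number). NPC2, which moves cholesterol out of lysosomes, was 1.91-fold lower (edgeR adjusted p = 0.00993 with library number). Of 7 tested genes of other isoprenoid branches, PDSS2 and PDSS1, which make the side chain of coenzyme Q, were 2.55-fold and 2.30-fold lower. Among 13 tested genes of fatty acid activation, elongation and desaturation, 0 were called higher and 3 lower: FADS2, a desaturase (3.35-fold), ACSL5, an acyl-CoA synthetase (2.36-fold), and ME1, the malic enzyme that supplies NADPH (2.08-fold).

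DHS peaks within 1 kb of a start of a coding transcript were listed for 16 of the 29 genes in PC9 and 19 in PC9R, where 49.1% and 57.6% of 11004 tested genes had one. The PC9R list is 3.03 times as long (59600 peaks against 19648), and with 1 library per line these differences have no replicate check and no test. Both lines had a peak at 15 of the 29 (38.5% of tested genes), and neither had one at 9 (31.9%). FDFT1 had a peak in PC9 only, a class that holds 10.6% of tested genes. SQLE, STARD4, ACLY and ACACA had one in PC9R only (19.0% of tested genes). Both lists were also cut to the same number of higher-scored peaks, a number smaller than the PC9 list itself. This left a peak at 14 of the genes in PC9 and 7 in PC9R (36.8% and 20.5% of tested genes). It left 8 of the genes with a PC9 peak alone and 1 with a PC9R peak alone (27.6% and 3.45%). The tested genes turned the same way (22.6% and 6.35%).

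At FDFT1 the PC9 peak covered 497 bp over the start (chr8:11659846-11660342), and the nearest PC9R peak was 7659190 bp away. At SQLE the PC9R peaks covered 436 bp, the nearest 105 bp from the start, and the nearest PC9 peak lay 93230 bp away. By score the SQLE peaks ranked only at percentiles 40.15 and 48.56 of the PC9R list, which is 3.03 times as long. The PC9R peak of ACACA ranked at 35.3, that of ACLY at 81.87 and that of STARD4 at 85.46. STARD4 had a PC9R peak of 647 bp that spans its start and both CCAAT matches shown above, while its nearest PC9 peak was 648318 bp away. The EBP, HSD17B7, SCAP, FASN and SCD promoters had no DHS peak in either line, so 4 of the 6 called genes were without one. Of all tested genes 31.9% had none in either line, and this share was not computed for called genes alone. Among the genes with a peak in both lines, CYP51A1 had 594 bp covered in PC9 and 1119 bp in PC9R, and IDI1 311 and 879 bp. HMGCS1 (801 and 849 bp) and INSIG2 (779 and 861 bp) were covered about equally. FDPS (415 and 174 bp) and ACAT2 (425 and 213 bp) were covered less widely in PC9R. Of the 2 TCACNCCAC elements, 1 lay inside a DHS peak in each line, that of SREBF2 (peak of 431 bp in PC9), and 0 lay inside an H3K4me2 peak. Of the 48 CCAAT matches in the set, 29 lay inside a DHS peak of PC9 and 14 inside one of PC9R. A gene can hold several matches, and most of those inside a PC9 peak only belonged to MVK, MVD, FDFT1 and NSDHL. Of these, MVK, MVD and NSDHL had a promoter DHS peak in both lines. The same count was not made over all coding promoters.

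H3K4me2 peaks were listed at 27 of the 29 promoters in PC9 and 28 in PC9R, close to the shares of all tested genes (94.7% and 95.3%). None of the 29 had one in PC9 alone (0.573% of tested genes), both lines had one at 27 (94.1%), and STARD4 was the gene with a peak in PC9R alone (1.2%), of 1157 bp across the start. HSD17B7 had none in either line (4.09%), the nearest being over 31 kb away (31212 bp in PC9 and 31431 bp in PC9R). Within 1 kb on either side of the main start, the median number of bases under H3K4me2 peaks was 1693 in PC9 and 1430 in PC9R for the 29 genes, and 1668 and 1181 for the tested genes. Fewer bases were covered in PC9R for 25 of the 29 (86.2%), and for 84.2% of tested genes. FASN went from 1612 to 100 bases and SREBF1 from 1839 to 472. A drop of 1300 bases or more was seen in these 2 of the 29 (6.90%) and in 2.13% of tested genes. The cut lies just under the drops of these 2 genes and was not set in advance, so these shares are a description only. EBP (1289 and 1502 bases), FDFT1 (1308 and 1358) and STARD4 were covered more widely in PC9R.

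**Figure D3:**
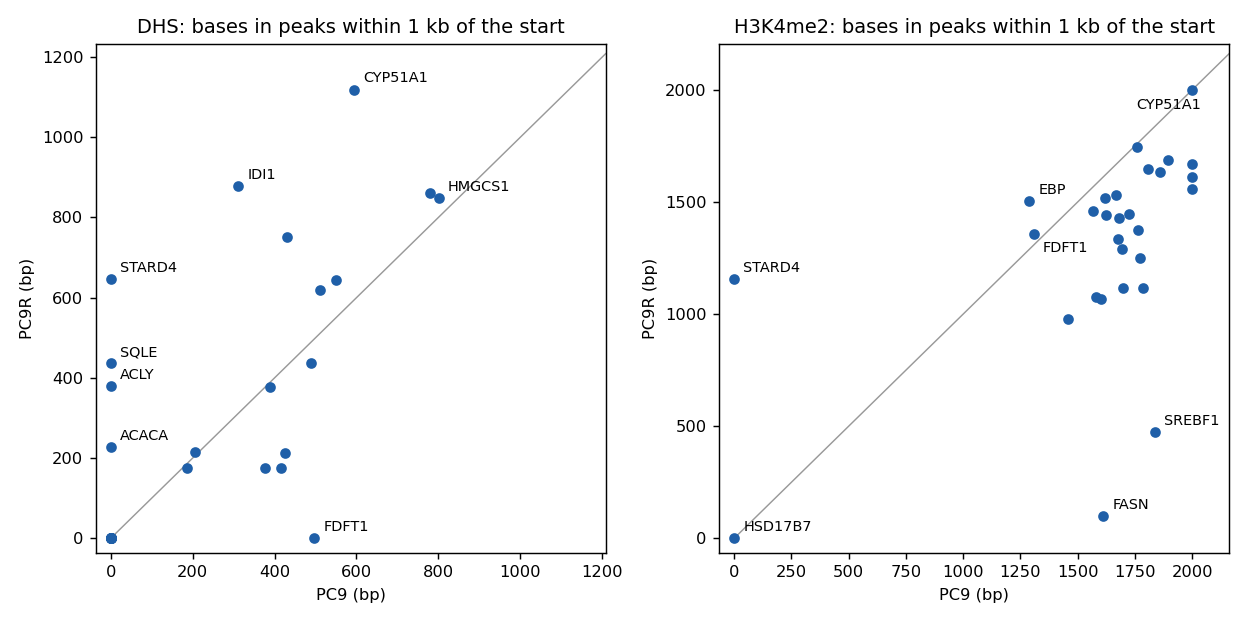
Bases covered by peaks within 1 kb on either side of the main start of each of the 29 genes, in PC9 (x axis) and PC9R (y axis), for DHS (left) and H3K4me2 (right), with the line of equal coverage. FDFT1 has 497 bp of DHS in PC9 and 0 in PC9R, STARD4 and SQLE lie on the PC9R axis, and FASN and SREBF1 lie far below the line for H3K4me2.

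The genes close to FDFT1, SCAP and EBP had a median difference between the lines in the same direction as these genes. Neighbours were the other tested genes within 2.5 Mb, with fold changes from the fit without library number. Their median log2 fold change was -0.83 for FDFT1 (12 neighbours, 7 lower), -0.73 for SCAP (69 neighbours, 59 lower) and 1.04 for EBP (42 neighbours, 40 higher). Over 11639 genes with at least 5 neighbours the 5th and 95th percentiles of such medians were -0.71 and 0.59, and the 3 regions ranked at the percentiles 2.84, 4.58 and 99.4. SQLE, FASN and HSD17B7 had neighbour medians of 0.12, 0.05 and 0.29, all between those limits. ACAT2 lay in a region where 18 of 18 neighbours were lower (median -0.70), while its own log2 fold change was 0.20 (SE 0.59) in the same fit. The sign of ACAT2 differed between first and second libraries, so its contrast with the region is not resolved. Copy number was not measured in these files, and its part in the results was not tested.

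**Figure D4:**
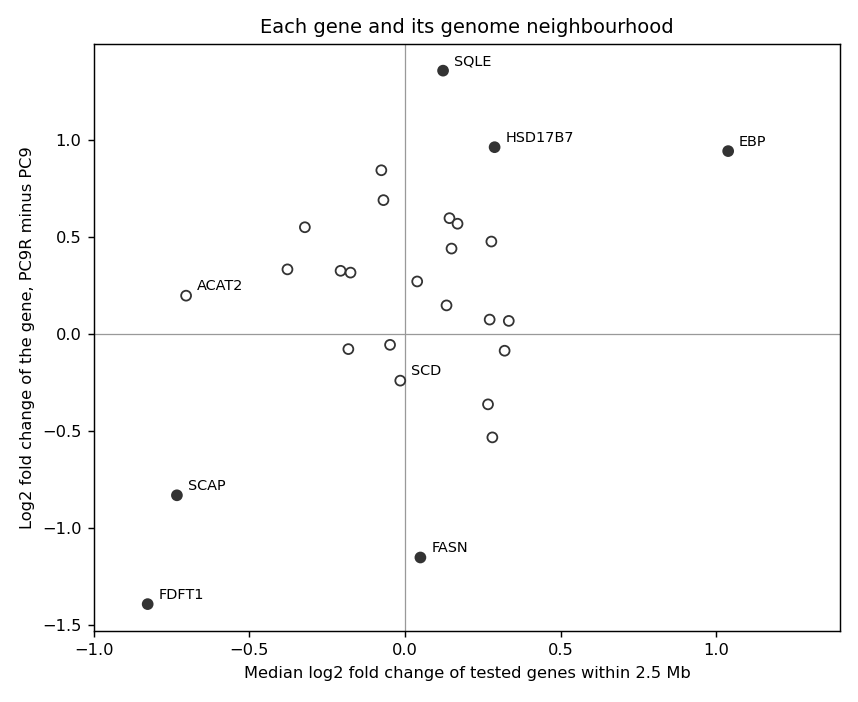
Log2 fold change of each tested gene (y axis, PC9R minus PC9, without library number) against the median log2 fold change of the other tested genes within 2.5 Mb (x axis). Filled points are the 6 genes called with library number in the model. FDFT1 and SCAP lie at the lower left and EBP at the right, while SQLE and FASN lie near 0 on the x axis.

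In the regions around the 29 genes PC9R had more DHS peaks than PC9 in 27 and fewer in 2, those of FDFT1 (5 in PC9, 0 in PC9R) and SCAP (56 and 52). H3K4me2 peaks were fewer in PC9R in 4 of the regions, those of FDFT1 (109 and 83), ACAT2 (188 and 182), LSS (230 and 216) and SCAP (341 and 340). FDFT1 lies on the short arm of chromosome 8. A stretch was taken from the start of that chromosome to 19.3 Mb, where the first PC9R DHS peak lies. Its end was set by that peak, so it holds 0 PC9R DHS peaks by definition, and its values are a description only. In that stretch 28 DHS peaks were listed for PC9, and the whole chromosome had 610 in PC9 and 2564 in PC9R. H3K4me2 peaks in that stretch numbered 394 in PC9 and 239 in PC9R. The 42 tested genes there, FDFT1 among them, had a median log2 fold change of -1.14, with 33 below 0 and 9 above. With library number 26 were called lower and 5 higher, against 9.57% and 11.2% of all tested features. Around SQLE, on the long arm, PC9 showed 51 DHS peaks within 2.5 Mb and PC9R 236.

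**Figure D5:**
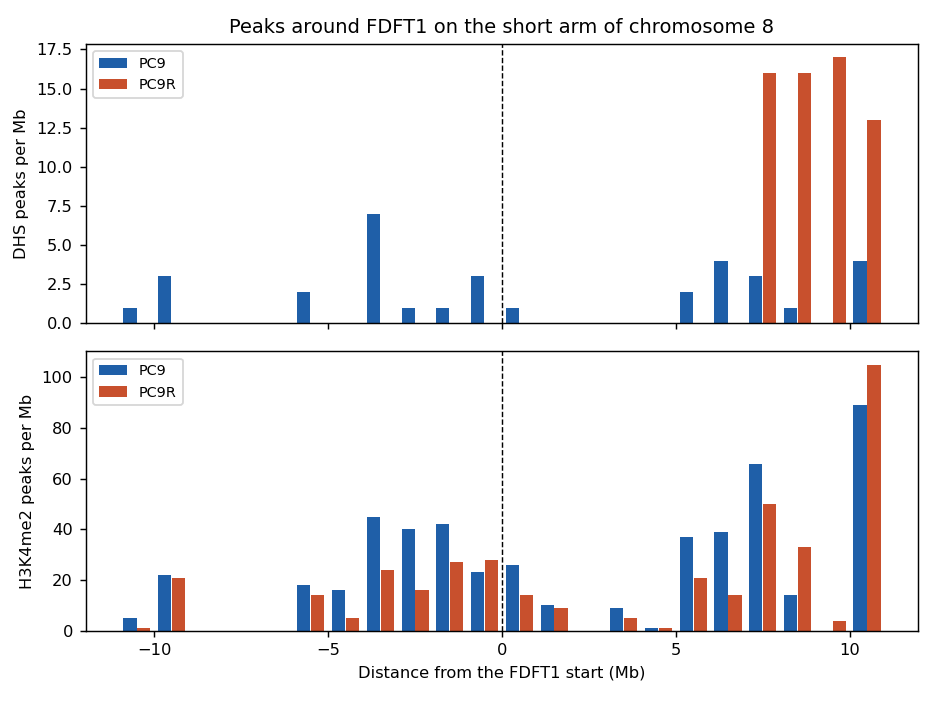
Number of DHS peaks (top) and H3K4me2 peaks (bottom) in 1 Mb bins against distance from the FDFT1 start (dashed line, in Mb), for PC9 (blue) and PC9R (orange). PC9R has 0 DHS peaks up to 7659190 bp past the start, while H3K4me2 peaks are listed in both lines across the region.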

How the data were processed

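The deposited RNA tables give integer counts for each RefSeq transcript. In the deposited peak lists, 1 per library, each peak has a score, which is the authors' own, has no stated scale and served only to rank peaks of a list. Per the submitters' processing notes, the build was hg19 and the tools were MACS2, TopHat, HTSeq and DESeq. Not given in the sources used here are their roles and settings and how reads shared by transcripts or strands were counted.

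The 42811 transcript accessions were summed to genes with the RefSeq gene table of GRCh38.p14, used for names only (41556 matched). Unmatched accessions, 0.668% to 0.824% of counts, stayed as features of their own. Starts, exons and GC came from GENCODE 44 lifted to GRCh37, and promoter bases from the GRCh37 genome. No peak lay past a chromosome end. The comparison used edgeR 4.0.16 under R 4.3.3, two-sided (TMM, filterByExpr, quasi-likelihood F test, adjusted p under 0.05 over all features), without and with library number. SE values are the size of the log2 fold change over the square root of F. CPM differences within libraries add 0.5 CPM. Promoter peaks overlap 1 kb around a coding start by at least 1 bp. Floors cover counting error only. The fit was tested on simulated data.

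Genes and lists were chosen with earlier results of these data known. All 29 genes are named, and of other lists up to 3 called genes each. Exonic bases on the other strand are shared by ACAT2 with TCP1 and SOD2, MVK with MMAB, CYP51A1 with AKAP9 and SREBF1 with RAI1, so reads of each pair cannot be told apart if strand was not used. Alternatives were other scalings and filters, DESeq2 1.42.0, limma-voom 3.58.1, library number with and without a GC correction, the accession with the most counts, and each library left out. For peaks they were other windows, lists of both lines shortened to equal length, 1 start per gene and a longer overlap. The sequence of 1 promoter is not reported here.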

Additional observations from a re-analysis of the deposited data

How the results depend on the processing

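With 2 libraries per line, library numbers are shared by 2 pairs only and the labels do not say that a number marks a shared culture or day. The second-minus-first differences of the lines correlated at 0.788 over features. With the replicate block (library number) 2631 features were called, 1420 higher and 1211 lower, and with block and GC correction 2714 (1253 and 1461), against 32 without; the biological coefficient of variation was 0.18 with and 0.498 without. The block called 6 of the genes described here, and 5 with the GC correction. No other setting called any, and RLE and upper quartile scaling changed no sign.

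Over all features upper quartile scaling called 0 (919 at an unadjusted p under 0.05), no filter 440 (312 higher, 128 lower), a mean of at least 5 CPM 15 (11 and 4), limma-voom 73 (54 and 19) and DESeq2 381 (261 and 120). Without 1 library in turn the number was 83 to 254. The cause was not tested. DHS lists both shortened to equal length gave 7 genes with a peak in PC9R, 8 in PC9 only and 1 in PC9R only (20.5%, 22.6% and 6.35% of tested genes). A 2 kb window gave 2 in PC9 only.

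Without library number, leaving out 1 library in turn kept the sign of FDFT1 (-1.45 to -1.37), SQLE (1.04 to 1.61), HSD17B7 (0.61 to 1.24), EBP (0.64 to 1.19) and SCAP (-1.42 to -0.34). FASN ranged from -2.20 to 0.18, positive without the first PC9 library. The sign of 15 other genes also changed, with no value past the threshold, over these ranges of log2 fold change: ACAT2 -0.44 to 0.64, MVD -0.46 to 1.32, IDI1 -0.32 to 1.15, CYP51A1 -0.077 to 1.19, DHCR7 -0.33 to 0.16, MSMO1 -0.10 to 1.29, NSDHL -0.76 to 0.40, SC5D -0.14 to 0.63, INSIG2 -0.42 to 0.78, SREBF1 -0.95 to 1.05, SREBF2 -0.77 to 0.22, ACLY -0.62 to 0.28, ACACA -0.10 to 0.20, ELOVL6 -0.88 to 1.29, SCD -0.67 to 0.079.
DHCR7 was 0.0025 with a mean of at least 5 CPM, and ACACA -0.0091 with replicate block and GC correction.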
